A study of Solanum lycopersicum with 10 samples.

Results

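The genes described here encode 9 tomato enzymes that act on lycopene and on the carotenes made from it. They comprise 3 lycopene cyclases, namely LCYB1 (Solyc04g040190.1), CYCB (Solyc06g074240.3) and LCYE (Solyc12g008980.3). A pair of beta-carotene hydroxylases, CrtR-b1 (Solyc06g036260.3) and CrtR-b2 (Solyc03g007960.3), and a pair of cytochrome P450 hydroxylases, CYP97A29 (Solyc04g051190.3) and CYP97C11 (Solyc10g083790.3), follow them in the pathway. Zeaxanthin epoxidase ZEP (Solyc02g090890.4) and violaxanthin de-epoxidase VDE (Solyc04g050930.3) complete the set. The members were chosen by their identifiers and by no rule on measured values, but with earlier results of these data known. All 9 were present among the 35288 genes of the deposited tables and passed the filter on low counts. RefSeq lists LCYB1 as LCY1, CYCB as NSY (synonym Cyc-B) and LCYE as CRTL-E-1 (synonym Delta). The other members are listed under the names used here. All lie on the chromosome that the identifier gives. These chromosomes are 2 for ZEP, 3 for CrtR-b2, 4 for LCYB1, CYP97A29 and VDE, 6 for CYCB and CrtR-b1, 10 for CYP97C11 and 12 for LCYE.

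Poly(A) RNA was sequenced from 5 tissues of untransformed tomato cv. Ailsa Craig (spelled Alisa Craig in the labels), a large-fruited cultivar. The exocarp, which is the fruit skin, and the mesocarp, the flesh under it, were taken at the mature green stage, 30 days post-anthesis, and at the red ripe stage, 7 days post-breaker. Leaves pooled from both stages were the only vegetative tissue, so leaf values carry no stage. Each tissue had 2 biological replicates, and the plants behind a replicate are not described further.

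Lycopene is the linear red carotene that gives the ripe tomato fruit its color. Lycopene beta-cyclases close a beta ring at the ends of the molecule and so lead to beta-carotene, while lycopene epsilon-cyclase closes an epsilon ring and, together with a beta-cyclase, leads to alpha-carotene and lutein. Hydroxylases then turn carotenes into xanthophylls. The epoxidase and the de-epoxidase interconvert zeaxanthin and violaxanthin in the xanthophyll cycle, by which leaves dissipate excess light energy.

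Total counts per library lay between 30945619 and 45637676. A level of 3 counts, taken as the smallest that a library can show, corresponded to 0.0692 to 0.101 CPM (counts scaled to the same library size). All levels below are CPM after TMM scaling unless FPKM is named, and all changes are log2 fold changes from edgeR's quasi-likelihood test with its standard error, called at a Benjamini-Hochberg adjusted p under 0.05. The green exocarp libraries stood apart from each other. Of the genes at 10 CPM or more, 3.58% differed at least 2-fold between them, against 0.728% in red exocarp, 0.216% in leaf, 0.0520% in green mesocarp and 0.0281% in red mesocarp. The members CrtR-b1, CrtR-b2, LCYB1, ZEP and VDE shared in this spread, so their main results that rest on green exocarp are also given without each of its libraries. In such a fit the lone green exocarp library is assumed to vary like the other tissues. Its adjusted p then does not measure the spread of green exocarp, and a smaller one is no added support.

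Defining markers matched the tissue labels. Summed over 4 skin genes, including the cutin synthase CD1 and the wax elongase CER6, the level was 1958 to 4029 CPM in exocarp, 21.2 to 91.9 in mesocarp and 521 to 529 in leaf, with CD1 at 0 in 1 red mesocarp library. Summed over 5 ripening genes, including the polygalacturonase PG2 and the transcription factor RIN, it was 43988 to 62131 CPM in red fruit, 49.3 to 314 in green fruit and 235 to 251 in leaf, with the ethylene synthesis gene ACS2 at 0 in both green exocarp libraries. Summed over 5 photosynthesis genes, including the Rubisco small subunit gene rbcS1, it was 23146 to 23255 CPM in leaf, 991 and 711 in green exocarp, 627 and 634 in green mesocarp, 126 and 243 in red exocarp and 39.7 and 36.1 in red mesocarp, with 2 and 3 of the 5 genes at 0 in the red exocarp libraries. In such bulk tissue, fewer cells of a type and less RNA per cell cannot be told apart.

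The leaf was the tissue with the highest level for 7 of the 9 members. The exceptions were CYCB, highest in red mesocarp, and CrtR-b2, highest in red exocarp and lowest in leaf. Over the 36 pairs of neighbouring tissues in the members' orders of level, 13 did not pass the test.

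**Figure D1:**
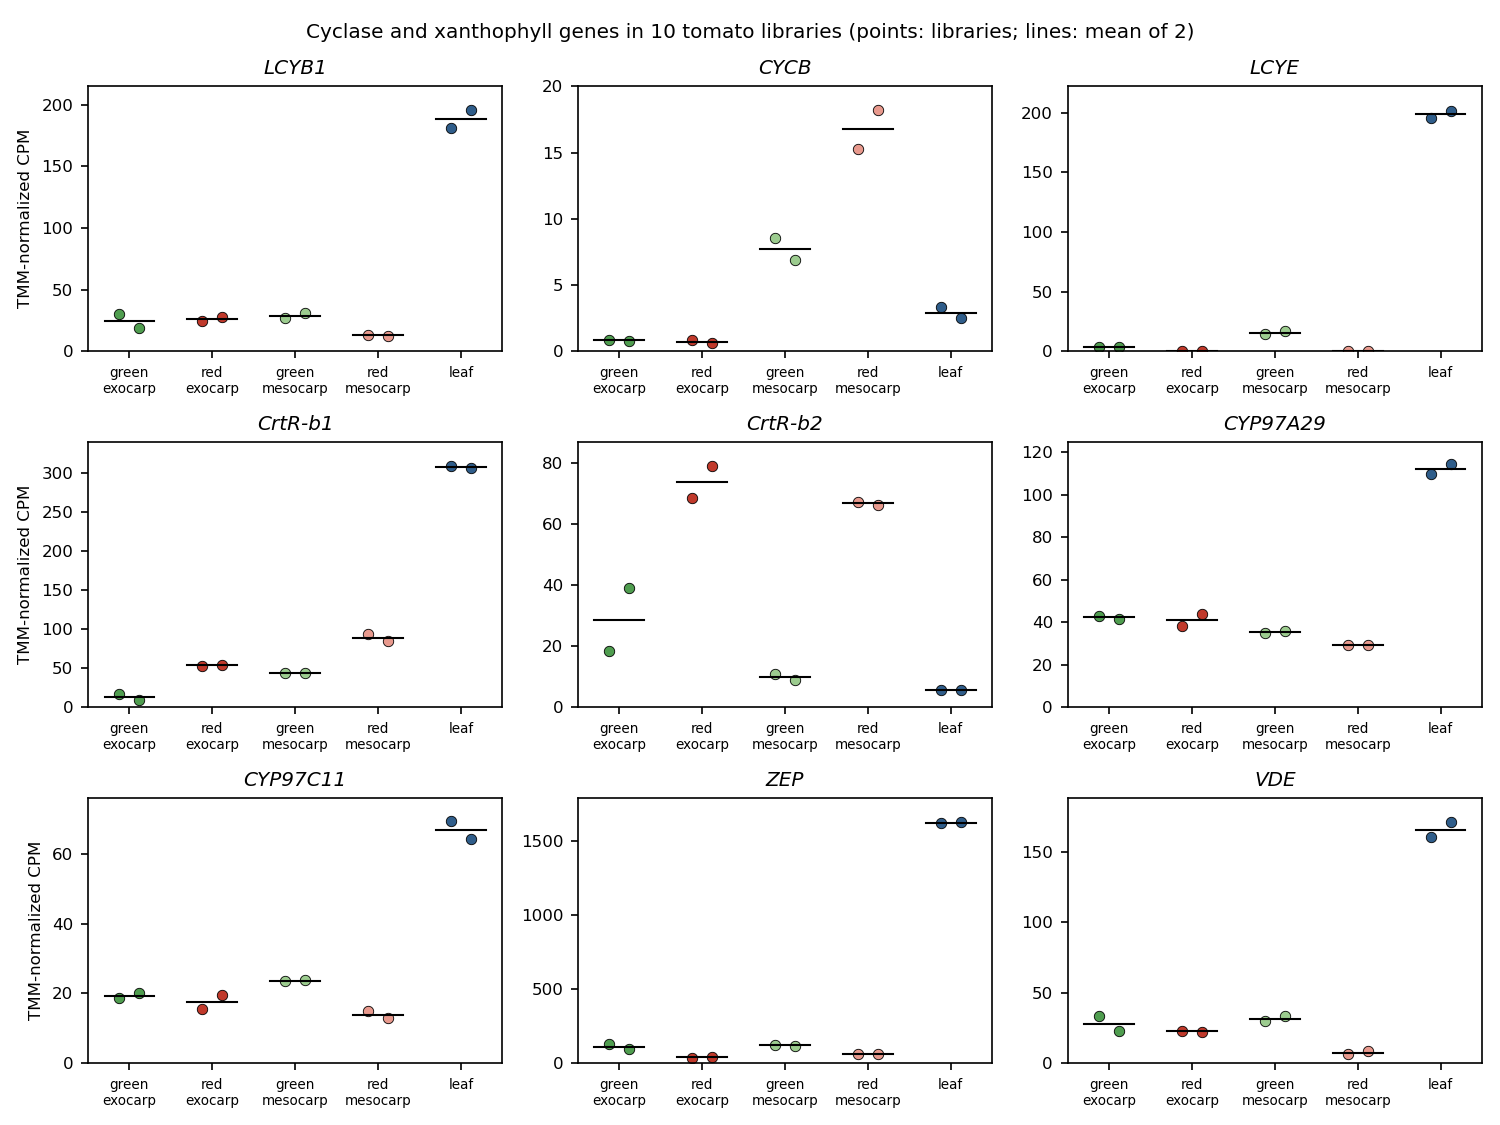
Each panel shows TMM-normalized CPM (y axis, linear from 0, a scale of its own per gene) of a member in the 5 tissues, with a point per library and a line at the mean of the 2 replicates. Leaf points lie above all fruit points for LCYB1, LCYE, CrtR-b1, CYP97A29, CYP97C11, ZEP and VDE, whereas CYCB peaks in red mesocarp at 15.3 and 18.2 CPM and CrtR-b2 in red exocarp at 68.8 and 79.2 CPM.

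The cyclases came apart between skin and flesh of the fruit. CYCB was higher in mesocarp than in exocarp at both stages. LCYE fell in both fruit tissues on ripening and had no count in red exocarp, and LCYB1 was lowest in red mesocarp. LCYB1, the beta-cyclase known from green tissue, was at 30.5 and 19.1 CPM in green exocarp, 26.8 and 30.8 in green mesocarp, 24.9 and 27.6 in red exocarp, 12.9 and 12.7 in red mesocarp, and 181 and 196 in leaf. Both red mesocarp libraries were below every other library, and the other fruit tissues overlapped. In the mesocarp LCYB1 fell on ripening, with a log2 fold change of -1.17 (SE 0.20, adjusted p = 0.000925). At the red ripe stage it was 2.05-fold higher in exocarp than in mesocarp (adjusted p = 0.00383).

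At the mature green stage the skin-to-flesh difference of LCYB1 was -0.21 (SE 0.19, adjusted p = 0.421), and the change of the exocarp on ripening was 0.08 (SE 0.19, adjusted p = 0.762). Both turned with the green exocarp library used. Without replicate 1 of green exocarp the LCYB1 values were -0.59 and 0.46, and without replicate 2 they were 0.08 and -0.20. Scaling by total counts also turned the exocarp change of LCYB1, to -0.25 (adjusted p = 0.316).

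CYCB, the beta-cyclase known from chromoplasts of tomato fruits and flowers, had 0.876 and 0.812 CPM in green exocarp and 0.883 and 0.590 in red exocarp. In green mesocarp it had 8.56 and 6.88 CPM, in red mesocarp 15.3 and 18.2, and in leaf 3.31 and 2.52. Every mesocarp library was above every leaf library, every leaf library was above every exocarp library, and the exocarp stages overlapped. The exocarp level was 9.11-fold lower than in mesocarp at the mature green stage (log2 fold change -3.19, SE 0.26, adjusted p = 3.92e-05) and 22.7-fold lower at the red ripe stage (-4.50, SE 0.27, adjusted p = 8.79e-06). On ripening CYCB rose 2.17-fold in the mesocarp (adjusted p = 0.00233), and in the exocarp its change was -0.20 (SE 0.29, adjusted p = 0.592). Only 21 to 38 counts per library stood behind the exocarp values, the smallest support of any member except LCYE. On the log2(FPKM + 1) scale, which understates changes of low genes, the skin-to-flesh differences of CYCB were -2.10 and -2.89, both still called.

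LCYE, the epsilon-cyclase of the lutein branch, was at 3.23 and 3.65 CPM in green exocarp, 14.2 and 17.2 in green mesocarp, and 196 and 202 in leaf. In red mesocarp it had 6 and 4 counts (0.143 and 0.124 CPM), and in red exocarp it had 0 counts in both libraries. No tissue overlapped another, and its levels fell in the order leaf, green mesocarp, green exocarp, red mesocarp and red exocarp. Green exocarp was 4.57-fold lower than green mesocarp (log2 fold change -2.19, SE 0.12, adjusted p = 1.36e-05). On ripening of the mesocarp LCYE fell by 6.83 on the log2 scale (SE 0.20, adjusted p = 1.75e-07).

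Against the mean floor of the red exocarp libraries, set at 3 counts per library and equal to 0.0863 CPM, LCYE in red exocarp was at least 39.9-fold lower than in green exocarp (adjusted p = 8.41e-07). With red exocarp at this floor, LCYE was 1.55-fold lower there than in red mesocarp (adjusted p = 0.00506). That ratio leaves out the counting error of the few red mesocarp counts, so it is no lower bound. LCYE passed the filter on low counts only through its levels in other tissues. The call was lost on the log2(FPKM + 1) scale, where the difference was -0.08 (adjusted p = 0.68). The level in red exocarp is below what this depth can show, and whether it is absent there cannot be read from these counts.

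FPKM, which divides by transcript length, allows levels of different genes to be set side by side. By mean FPKM, LCYB1 held the largest share of the 3 cyclases in every tissue but red mesocarp. In leaf, LCYE made up 45.2% and 44.2% of the summed cyclase FPKM and CYCB 0.988% and 0.706%. LCYE made up 23.8% and 26.2% in green mesocarp, 7.38% and 12.5% in green exocarp, 0.379% and 0.304% in red mesocarp and 0% in red exocarp. CYCB made up 54.2% and 58.7% of cyclase FPKM in red mesocarp, 18.5% and 13.5% in green mesocarp, and at most 3.50% in any exocarp library. The summed cyclase FPKM itself was 186 and 197 in leaf and 14.3 to 38.0 in the fruit libraries. Among these 3 genes, red exocarp was the fruit tissue closest to a single transcript, with LCYB1 at 96.7% and 98.0% of their FPKM. LCYB2 (Solyc10g079480.1), a cyclase gene of the pathway list below, was not part of the sum, so these shares do not describe all cyclase transcripts.

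The beta-carotene hydroxylases, both of which add hydroxyl groups to beta rings, rose on ripening in skin and flesh alike but differed in the leaf. CrtR-b1 was at 17.5 and 9.98 CPM in green exocarp, 43.6 and 44.0 in green mesocarp, 52.5 and 54.8 in red exocarp, 94.2 and 84.5 in red mesocarp, and 309 and 307 in leaf. Green exocarp was the lowest tissue in both libraries and leaf the highest, and no 2 tissues overlapped. On ripening CrtR-b1 rose 3.91-fold in the exocarp (log2 fold change 1.97, SE 0.21, adjusted p = 5.28e-05) and 2.04-fold in the mesocarp (1.03, SE 0.20, adjusted p = 0.00212). The exocarp rise of CrtR-b1 was 2.42 without replicate 1 of green exocarp and 1.64 without replicate 2.

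CrtR-b1 was lower in exocarp than in mesocarp at both stages, by 3.19-fold in green fruit (adjusted p = 0.00043) and by 1.67-fold in red fruit (adjusted p = 0.0193). The log2 difference in green fruit was -2.13 without replicate 1 and -1.33 without replicate 2 of green exocarp. The call in red fruit was lost when any of the 4 libraries compared was left out, with differences of -0.82 to -0.66 and adjusted p between 0.0534 and 0.108 for CrtR-b1.

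CrtR-b2, a hydroxylase known from chromoplast-rich tissues such as petals, had 18.5 and 39.0 CPM in green exocarp, 10.9 and 8.82 in green mesocarp, 68.8 and 79.2 in red exocarp, and 67.4 and 66.4 in red mesocarp. In leaf it had 5.59 and 5.65 CPM, below every fruit library. The red tissues were above the green ones in every library, while the green exocarp libraries differed 2.04-fold in FPKM between themselves. CrtR-b2 rose on ripening 2.58-fold in the exocarp (log2 fold change 1.37, SE 0.28, adjusted p = 0.00296) and 6.79-fold in the mesocarp (2.76, SE 0.30, adjusted p = 7.56e-05). It was 2.91-fold higher in exocarp than in mesocarp at the green stage (adjusted p = 0.0044), and at the red stage the difference was 0.14 (SE 0.28, adjusted p = 0.746). Without replicate 1 of green exocarp the green-stage difference of CrtR-b2 was 1.99 and the exocarp change on ripening 0.92. Without replicate 2 they were 0.90 and 2.02.

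CrtR-b2 supplied 1.79% and 1.82% of the summed FPKM of both CrtR-b genes in leaf. Its share in mesocarp was 20.1% and 16.8% at the green stage and 42.0% and 44.3% at the red stage. In exocarp it was 51.7% and 79.8% at the green stage and 57.0% and 59.4% at the red stage. The genes of this pair are related in sequence, as are LCYB1 and CYCB. How reads that match several genes were counted is not given in the sources used here, so the split within each pair is uncertain to that extent.

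**Figure D2:**
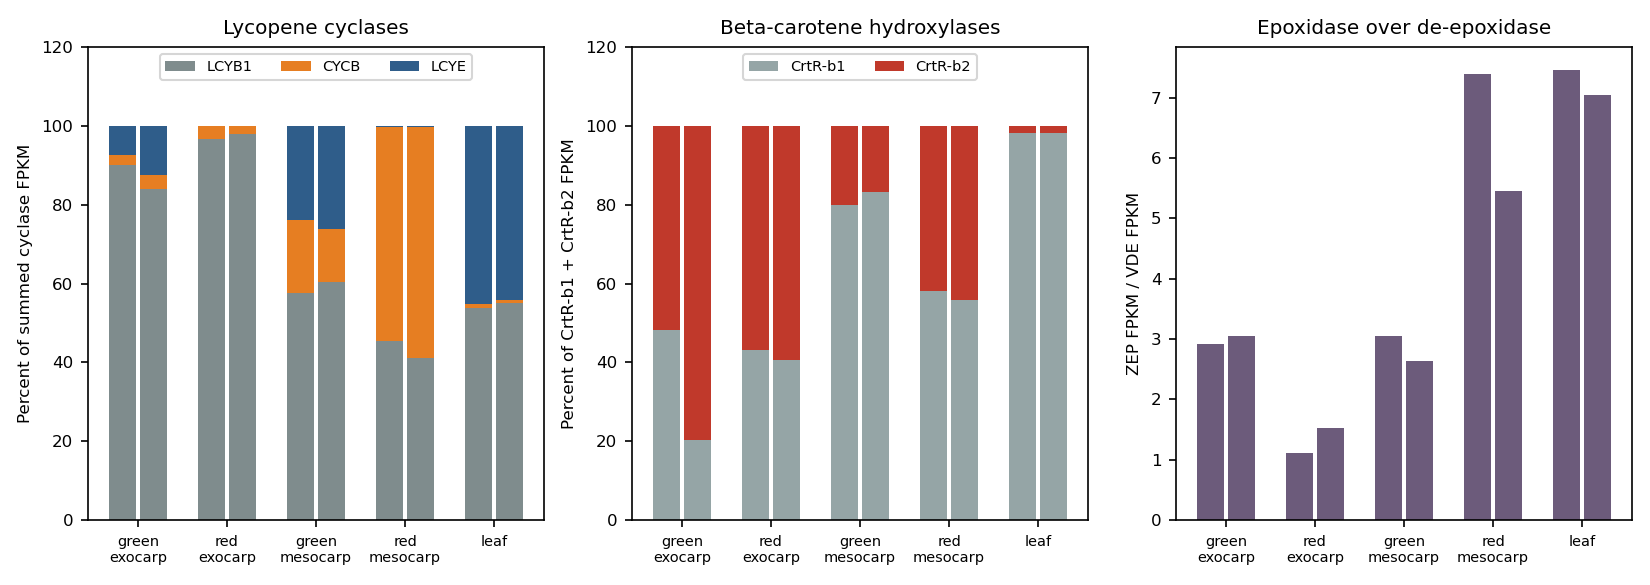
Bars show, per library (2 per tissue), the percent of summed cyclase FPKM from LCYB1, CYCB and LCYE (left), the percent of CrtR-b1 plus CrtR-b2 FPKM from each gene (middle) and the ratio of ZEP to VDE FPKM (right), with y axes starting at 0. CYCB takes 54.2% and 58.7% of cyclase FPKM in red mesocarp, LCYE takes 45.2% and 44.2% in leaf, and CrtR-b2 takes under 2% of the CrtR-b pair in leaf.

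The cytochrome P450 hydroxylases had the narrowest range of levels, with 3.84-fold for CYP97A29 and 4.80-fold for CYP97C11 between the highest and the lowest tissue mean, against 13.2-fold or more for every other member. In Arabidopsis, enzymes of the CYP97A and CYP97C families hydroxylate the beta and the epsilon ring of alpha-carotene on the way to lutein. CYP97A29 was at 43.1 and 41.5 CPM in green exocarp, 35.0 and 36.0 in green mesocarp, 38.5 and 43.8 in red exocarp, 29.2 and 29.3 in red mesocarp, and 109.9 and 115 in leaf. Every exocarp library was above every mesocarp library, and the exocarp stages overlapped. It was 1.41-fold higher in exocarp than in mesocarp at the red stage (log2 fold change 0.49, SE 0.08, adjusted p = 0.00166) and 1.19-fold higher at the green stage (0.25, SE 0.08, adjusted p = 0.0358). On ripening of the mesocarp it fell by 0.28 on the log2 scale (SE 0.08, adjusted p = 0.0147), and in the exocarp the ripening change was -0.04 (SE 0.08, adjusted p = 0.709).

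The small differences of CYP97A29 depended on the processing. Its green-stage call was lost with DESeq2, with the size factors of DESeq2, with total counts, with only the compared tissues and with both FPKM fits (0.13 to 0.25, adjusted p from 0.0539 to 0.232), and when replicate 1 of green exocarp or any 1 library of green mesocarp, red mesocarp or leaf was left out (adjusted p from 0.059 to 0.162). Its mesocarp call was lost when any 1 of the 4 mesocarp libraries was left out (adjusted p from 0.0546 to 0.0772), and scaling by total counts called its ripening change in the exocarp (-0.36, adjusted p = 0.00399).

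CYP97C11 had 18.6 and 20.01 CPM in green exocarp, 23.5 and 23.7 in green mesocarp, 15.7 and 19.4 in red exocarp, 14.9 and 13.0 in red mesocarp, and 69.5 and 64.2 in leaf. Green mesocarp was the highest fruit tissue and red mesocarp the lowest in both libraries, with the exocarp stages overlapping between them. On ripening of the mesocarp it fell by 0.76 on the log2 scale (SE 0.12, adjusted p = 0.000715), and in the exocarp its change was -0.14 (SE 0.12, adjusted p = 0.364). The skin-to-flesh difference of CYP97C11 was -0.29 (SE 0.12, adjusted p = 0.092) in green and 0.33 (SE 0.12, adjusted p = 0.0645) in red fruit. Scaling by total counts called the green-stage difference of CYP97C11 (-0.41, adjusted p = 0.0205) and its exocarp change on ripening (-0.46, adjusted p = 0.00761). Leaving out replicate 1 of red exocarp called the red-stage difference (0.47, adjusted p = 0.0219).

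Both enzymes of the xanthophyll cycle were lower after ripening in the flesh, and in the skin only ZEP passed the test. ZEP, which makes violaxanthin from zeaxanthin, was the most abundant member by far in leaf, at 1620 and 1627 CPM. In the fruit it was at 131.8 and 95.2 CPM in green exocarp, 124 and 119 in green mesocarp, 34.6 and 45.4 in red exocarp, and 65.1 and 63.7 in red mesocarp. The green tissues overlapped, and red exocarp was below red mesocarp in both libraries. On ripening ZEP fell 2.84-fold in the exocarp (log2 fold change -1.50, SE 0.17, adjusted p = 6.8e-05) and 1.88-fold in the mesocarp (-0.91, SE 0.16, adjusted p = 0.00138). Without replicate 1 of green exocarp the exocarp value of ZEP was -1.25, and without replicate 2 it was -1.70.

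At the red stage ZEP was 1.61-fold lower in exocarp than in mesocarp (adjusted p = 0.0118), and at the green stage the difference was -0.10 (SE 0.16, adjusted p = 0.706). The red-stage call of ZEP was lost without replicate 1 of red exocarp (-0.51, adjusted p = 0.0627) or of red mesocarp (-0.67, adjusted p = 0.0609). Without replicate 2 of green exocarp the green-stage value turned to 0.12.

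VDE, the lumenal enzyme that returns violaxanthin to zeaxanthin, had 33.3 and 23.1 CPM in green exocarp, 30.1 and 33.4 in green mesocarp, 23.2 and 22.0 in red exocarp, 6.53 and 8.65 in red mesocarp, and 161 and 171 in leaf. Red mesocarp was the lowest tissue in both libraries, and the green exocarp libraries overlapped the range of both other fruit tissues. In the mesocarp VDE fell 4.20-fold on ripening (log2 fold change -2.07, SE 0.19, adjusted p = 2.42e-05) and was 2.99-fold higher in red exocarp than in red mesocarp (1.58, SE 0.19, adjusted p = 0.000349). In the exocarp the ripening change was -0.32 (SE 0.18, adjusted p = 0.148), and the skin-to-flesh difference in green fruit was -0.17 (SE 0.18, adjusted p = 0.504). Without replicate 1 of green exocarp the green-stage difference of VDE was -0.46 and the exocarp change -0.03. Without replicate 2 the green-stage difference was 0.07 and the exocarp change -0.55. Total counts called the exocarp change of VDE (-0.65, adjusted p = 0.0158).

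The ratio of ZEP to VDE in FPKM set red exocarp and red mesocarp apart. In exocarp it was 2.93 and 3.05 at the green stage and 1.10 and 1.53 at the red stage. In mesocarp it was 3.05 and 2.63 at the green stage and 7.39 and 5.45 at the red stage. In leaf it was 7.47 and 7.05, closer to red mesocarp than to the other fruit tissues.

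Set against all genes, the skin-to-flesh comparisons read as follows. In green fruit 2 members were higher in exocarp (CrtR-b2 and CYP97A29), while 17.3% of the 22801 genes tested were higher. CYCB, LCYE and CrtR-b1 were lower, 3 of 9, with 19.0% of all genes lower, and the median member change was -0.21 against 0 over all genes. In red fruit 3 members were higher in exocarp (LCYB1, CYP97A29 and VDE) with a background of 18.1%, and 4 were lower (CYCB, LCYE, CrtR-b1 and ZEP) with a background of 19.4%. The median member change there was 0.14, and the call of LCYE rested on few counts, as given above. With 9 genes, these shares describe the set and are no test of it.

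Ripening was the broader change in the whole transcriptome. In the exocarp 2 members rose (CrtR-b1 and CrtR-b2), where 29.7% of all genes did, and 2 fell (LCYE and ZEP), where 32.2% of all genes did. The median member change was -0.14. In the mesocarp all 9 members passed the test: CYCB, CrtR-b1 and CrtR-b2 rose, 3 of 9 against a background of 28.2%, and LCYB1, LCYE, CYP97A29, CYP97C11, ZEP and VDE fell, 6 of 9 against 31.8%. The median member change in the mesocarp was -0.76, against -0.02 over all genes. Photosynthesis marker sums were also lower in red than in green fruit, as given above, and their part in these changes was not tested.

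Scaling moved the whole transcriptome in several comparisons, and these shifts bear on the members' small changes. With total counts in place of TMM, the median change of all genes moved by -0.28 for the ripening exocarp and by -0.39 for the ripening mesocarp. The genes called then split into 4755 higher and 9306 lower in the exocarp (6767 and 7341 with TMM), and into 3839 higher and 9992 lower in the mesocarp (6441 and 7256 with TMM). For green exocarp over green mesocarp the split was 3165 higher and 5497 lower (3954 and 4322 with TMM), with a shift of -0.11. For green mesocarp over leaf it was 9990 higher and 6143 lower (7459 and 8156 with TMM), with a shift of 0.39. Under this scaling 7 rather than 4 members changed in the ripening exocarp, the additions being falls of CYP97A29, CYP97C11 and VDE.

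**Figure D3:**
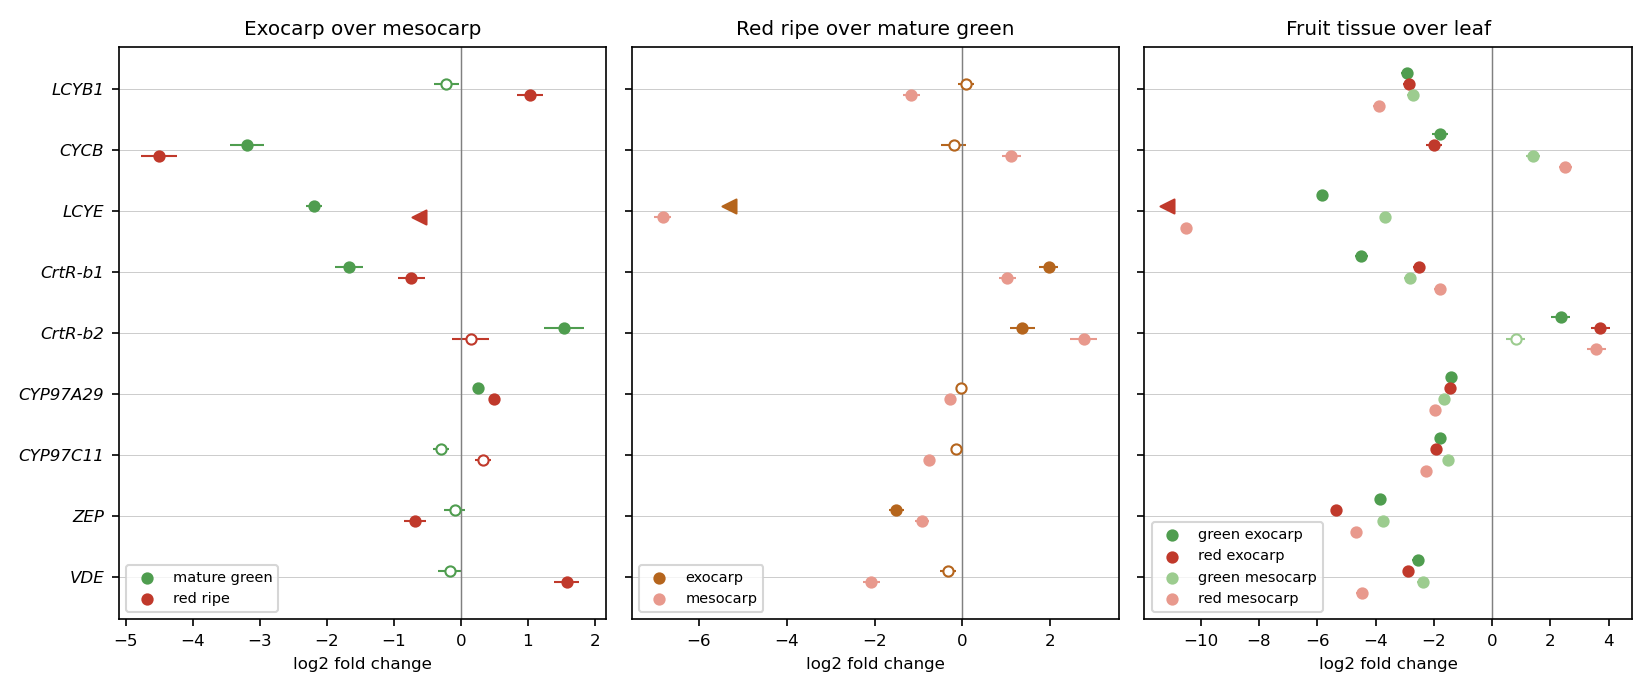
Log2 fold changes (x axis) of the 9 members with bars of 1 standard error, for exocarp over mesocarp by stage, red ripe over mature green by tissue, and each fruit tissue over leaf. Filled points passed an adjusted p of 0.05 and open points did not. Triangles show LCYE with red exocarp set at its floor, since both libraries there had 0 counts. Most leaf comparisons lie left of 0, except those of CrtR-b2 and the mesocarp values of CYCB.

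Ripening itself differed between skin and flesh for 6 members, as tested by the difference of both changes in the same model. The exocarp change was the higher for 4 members, with 10.9% of all genes called in that direction, and the lower for 2, with 10.5% of all genes called. Among the members with the higher exocarp change, the difference was largest for VDE, 1.75 on the log2 scale (SE 0.26, adjusted p = 0.00237), and its fall was in the mesocarp. For LCYB1 the difference was 1.25 (SE 0.27, adjusted p = 0.0135). CYP97C11 differed by 0.62 (SE 0.17, adjusted p = 0.034) and CrtR-b1, which rose more in the exocarp, by 0.94 (SE 0.28, adjusted p = 0.0493). CrtR-b2 rose more in the mesocarp, with a difference of -1.40 (SE 0.41, adjusted p = 0.042), and CYCB differed by -1.32 (SE 0.36, adjusted p = 0.0347).

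For ZEP the difference was -0.59 (SE 0.23, adjusted p = 0.109) and for CYP97A29 0.24 (SE 0.11, adjusted p = 0.172), neither of which passed. That of ZEP was called with DESeq2 (-0.59, adjusted p = 0.0472). It was -0.81 without replicate 2 of green exocarp and -0.80 without replicate 2 of red exocarp. No value is given for LCYE, because its red exocarp count of 0 leaves the exocarp change open-ended. The count of 6 members depended on single libraries, and calls over all genes moved with them too. Whichever of the 10 libraries was left out, the call of VDE held (1.51 to 2.04, adjusted p at most 0.0148). That of LCYB1 was lost without replicate 2 of green mesocarp or either red mesocarp library (adjusted p from 0.0528 to 0.0586), and that of CYCB without replicate 1 of green exocarp, replicate 2 of red exocarp or any 1 mesocarp library (adjusted p from 0.0551 to 0.11). For CYP97C11 it held only without replicate 2 of green exocarp or replicate 1 of red exocarp. The calls of CrtR-b1 and CrtR-b2 were lost whenever a library other than green exocarp was left out. Without replicates 1 and 2 of green exocarp the difference was 1.39 and 0.59 for CrtR-b1 and -1.84 and -0.76 for CrtR-b2.

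**Figure D4:**
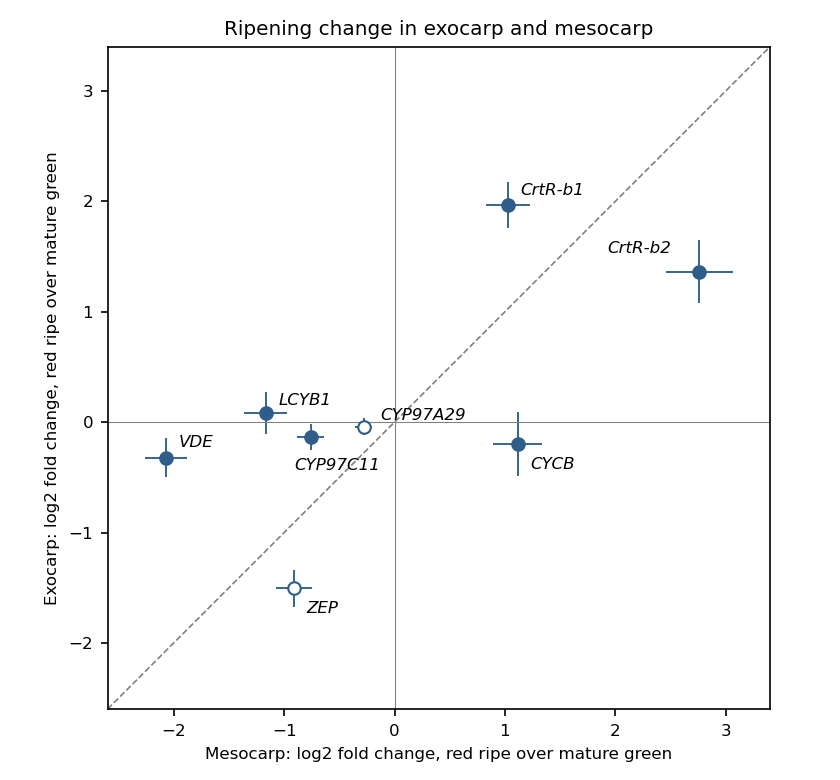
Ripening change (log2 fold change, red ripe over mature green) in mesocarp (x axis) and in exocarp (y axis) for 8 members, with bars of 1 standard error and a dashed line where both are equal. LCYE is left out because it had 0 counts in red exocarp. Filled points are the 6 members whose changes differed between the tissues, with VDE, LCYB1, CYP97C11 and CrtR-b1 above the line and CYCB and CrtR-b2 below it.

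Against leaf, the fruit tissues were lower for most members, often by more than between any fruit tissues. All 4 comparisons share the same leaf libraries. In green exocarp 8 members were lower than in leaf, with a background of 36.4% of genes, and CrtR-b2 was higher, with a background of 34.6%. In red exocarp the split was again 8 lower and 1 higher, with backgrounds of 40.2% and 35.7%. The median member change was -2.55 in green and -2.52 in red exocarp, the latter also with LCYE set at its bound. In green mesocarp 7 members were lower (background 35.8%) and CYCB was higher (background 32.7%). In red mesocarp 7 were lower (background 41.6%), and CYCB and CrtR-b2 were higher (background 35.0%).

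LCYE was 57.7-fold lower in green exocarp, 12.6-fold lower in green mesocarp, 1437-fold lower in red mesocarp and at least 2303-fold lower in red exocarp (adjusted p at most 1.97e-07 for each). ZEP was 14.3-fold lower in green exocarp, 13.4-fold lower in green mesocarp, 25.2-fold lower in red mesocarp and 40.6-fold lower in red exocarp. The gap of LCYE was the widest among members in every fruit tissue but green mesocarp, where that of ZEP was wider. CYP97A29 was 2.65-fold lower in green exocarp and 3.84-fold lower in red mesocarp, and CrtR-b1 was 22.4-fold and 3.45-fold lower. Without replicates 1 and 2 of green exocarp the log2 differences of that tissue from leaf were -5.76 and -5.92 for LCYE, -4.09 and -3.60 for ZEP, -4.94 and -4.12 for CrtR-b1, and -1.43 and -1.36 for CYP97A29. The direction of the difference between green exocarp and leaf held for all 9 members without either library. CrtR-b2 ran the other way and was 13.2-fold higher in red exocarp and 11.9-fold higher in red mesocarp than in leaf. For CrtR-b2 in green mesocarp the difference from leaf was 0.81 (SE 0.32, adjusted p = 0.0506). This difference was called with DESeq2 (adjusted p = 0.0365) and total counts (1.22, adjusted p = 0.0063). It was 0.81 without replicate 1 and 0.83 without replicate 2 of green exocarp, a tissue outside this comparison. CYCB was 5.73-fold higher in red mesocarp (adjusted p = 1.6e-05) and 2.64-fold higher in green mesocarp (adjusted p = 0.000739) than in leaf.

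Summed over the 9 members, FPKM was 1061 and 1079 in leaf and 133 to 187 in the fruit libraries. The sum was close in all fruit tissues, at 141 in red exocarp, 144 in green exocarp, 158 in red mesocarp and 186 in green mesocarp (means of 2). Its makeup was not, since both CrtR-b genes together reached 97.5 FPKM or more in red mesocarp and 77.4 or more in red exocarp against at most 46.9 in any green library. The FPKM values carry no TMM scaling, whose factors ran from 0.881 in a red exocarp library to 1.21 in a green mesocarp library. The order of the fruit tissues by this sum can therefore not be read. The photosynthesis marker sum was also highest in leaf, and its part in the leaf comparisons was not tested.

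To place neighbouring tissues in the order of levels, red mesocarp was also compared with green exocarp and red exocarp with green mesocarp. In the first comparison all 9 members differed, with 65.0% of all genes called in either direction. In the second 7 of 9 differed, with 65.7% of all genes called, and LCYB1 (-0.13, adjusted p = 0.561) and CrtR-b1 (0.29, adjusted p = 0.227) did not pass. LCYB1 was called lower in red exocarp with total counts (-0.58, adjusted p = 0.0301) and with both FPKM fits (-0.54 and -0.57, adjusted p = 0.0364 and 0.0387). CrtR-b1 was called higher in red exocarp with only the compared tissues (0.25, adjusted p = 0.0222). Its difference was 0.29 without replicate 1 and 0.30 without replicate 2 of green exocarp. Total counts and both FPKM fits turned it to -0.15 (adjusted p from 0.551 to 0.591). The difference of CYP97A29 between red exocarp and green mesocarp was 0.21 (SE 0.08, adjusted p = 0.0408) but turned to -0.23 with total counts (adjusted p = 0.033). With total counts the split over all genes was 5402 higher and 9145 lower in the first comparison (7260 and 7560 with TMM) and 4518 higher and 10592 lower in the second (7235 and 7741 with TMM).

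A list of 17 other carotenoid pathway genes, from phytoene synthesis to carotenoid cleavage, gave the surroundings of the members, and 15 of them could be tested. On ripening 8 of the 15 rose and 6 fell in the exocarp, and 8 rose and 6 fell in the mesocarp. Psy1, the phytoene synthase of ripening fruit that feeds the pathway upstream of lycopene, rose by 7.98 on the log2 scale in the exocarp (adjusted p = 3.92e-08) and by 6.72 in the mesocarp (adjusted p = 9.36e-08). No member rose by as much, the largest called rise on ripening being the 2.76 of CrtR-b2 in the mesocarp. Between skin and flesh, edgeR called 3 of the 15 lower and 0 higher in green exocarp. At an unadjusted p under 0.05 there were 5 lower and 1 higher, and DESeq2 called 5 lower and 1 higher. In red exocarp 3 of the 15 were higher and 1 was lower than in red mesocarp. Their ripening changes were higher in the exocarp for 4 and lower for 1. The shares of all genes called by edgeR at the adjusted p in these comparisons are those given above for the members. DESeq2 called 3865 of 22801 genes higher and 4568 lower in green exocarp over green mesocarp. No share of all genes is given at an unadjusted p.

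Against leaf, 13 list genes were lower and 2 higher in each green tissue. In red exocarp 7 were higher and 6 lower, and in red mesocarp 6 were higher and 6 lower. The members kept 7 or 8 of 9 below leaf in red fruit as well. Whether the members and the list differ in this was not tested. Backgrounds over all genes are those given above for the leaf comparisons of the members.

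The list gene whose log2 CPM followed a member most closely over the 10 libraries was sought as a description of the profiles. These libraries share 5 tissues, so the coefficients rest largely on tissue means and above all on leaf. PSY2, a phytoene synthase of green tissue, was nearest to ZEP (Pearson r = 0.988 over 10 libraries and 0.938 over the 8 fruit libraries). PSY2 was also nearest to LCYB1 (0.924) and CYP97A29 (0.923), but over the fruit libraries alone r was 0.01 for LCYB1 and -0.25 for CYP97A29. The carotenoid cleavage dioxygenase CCD1A was nearest to CYP97C11 (0.964, and 0.831 in fruit), and its neighbour CCD1B was nearest to CrtR-b1 (0.963, and 0.917 in fruit). CrtR-b2 ran with the isomerase Z-ISO (0.832, and 0.887 in fruit). CYCB had no close list gene, the nearest being CCD1B at 0.217. For LCYE (0.967) and VDE (0.921) the nearest list genes carry no symbol in RefSeq. Among the members themselves, LCYB1 and VDE ran together over all libraries (0.969) and over the fruit libraries (0.944), while LCYE and CrtR-b2 ran opposite to each other (-0.97 and -0.94).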

How the data were processed

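Poly(A) RNA of 5 tomato tissues was sequenced in 2 biological replicates each, and tissue and replicate were taken from the sample labels. The series' design text lists green exocarp in duplicate and omits green mesocarp, so grouping rests on the labels of the single samples. Raw gene counts and FPKM values (counts per transcript length and library size) of all 10 libraries were deposited by the authors. HISAT2 is named in the submitters' processing notes, while the counting tool, genome build and annotation are not given in the sources used here. FPKM depends on the transcript lengths used, and a gene's reads cannot be told from those of close copies or of antisense transcripts. No coordinates are therefore given.

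After filterByExpr, which kept 22801 genes, and TMM scaling, edgeR 4.0.16 (R 4.3.3) fitted all libraries together and gave quasi-likelihood F tests (5 residual degrees of freedom, biological coefficient of variation 0.153) with Benjamini-Hochberg adjustment over all genes tested. Calls used an adjusted p under 0.05. With 2 libraries a tissue, an exact permutation test cannot pass that threshold. The p-values rest on a spread between replicates that is pooled over all tissues, not on that of the compared tissues alone. Floors of 3 counts cover counting error only. Alternatives were DESeq2 1.42.0, its size factors, total counts, no filter, only the compared tissues, a replicate block, limma 3.58.1 on log2(FPKM + 1) and log2(FPKM + 0.1), a stricter threshold and each library left out, where the lone library is assumed to vary like the other tissues. The fit was also run on simulated data with 200 changed genes and the same spread in every tissue. That setting lacks the wider spread of green exocarp and the far larger number of changed genes, so it does not test the fit under these conditions. All 9 members are named by rule, and list genes only where nearest to a member or where a result turns on them. Psy1 was named outside this rule, for its place upstream of lycopene. Members and lists were chosen with earlier results of these data known. Names of members and lists were set beforehand for the identifiers. They were then looked up by symbol or alias, and by chromosome, among 41476 RefSeq genes (assembly SLM_r2.1), which hold no such identifiers. All 9 members and 12 of 17 list genes had a symbol there. This match cannot show that an identifier is the named gene. Python 3.11.15, pandas 2.3.3, numpy 2.4.6 and matplotlib 3.10.9 were used.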

Additional observations from a re-analysis of the deposited data

Results flagged for a closer look

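The ripening change differed between exocarp and mesocarp for 6 of the 9 members, by the test of the difference itself. The exocarp change was the higher for 4, where 10.9% of all genes were called higher, and the lower for 2, where 10.5% were called lower. The count of 6 depended on single libraries. It fell without replicate 2 of green mesocarp or either replicate of red mesocarp, where fewer of all genes were called too. It rose without replicate 2 of green exocarp, and VDE was called whichever library was left out. On the log2 scale, exocarp minus mesocarp, the difference was 1.75 for VDE, 1.25 for LCYB1, 0.94 for CrtR-b1, 0.62 for CYP97C11, -1.32 for CYCB and -1.40 for CrtR-b2. In the main analysis VDE, LCYB1 and CYP97C11 were called lower on ripening in the mesocarp only, and CYCB was called higher in the mesocarp only. With total counts and both FPKM fits, VDE and CYP97C11 were called lower in the exocarp as well. Both CrtR-b genes rose in each tissue by different amounts. The photosynthesis marker sum went from 627 and 634 to 39.7 and 36.1 CPM in the mesocarp and went from 991 and 711 to 126 and 243 CPM in the exocarp, and its part in these differences was not tested.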

How the results depend on the processing

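The counts of members called moved with the threshold, the scaling and single libraries. The stricter threshold gave 4 for red exocarp over red mesocarp (7 in the main analysis), 6 for red over green mesocarp (9), 5 for red mesocarp over green exocarp (9), 4 for red exocarp over green mesocarp (7) and 1 for the ripening difference (6). Total counts and both FPKM fits gave 7 for red over green exocarp (4), and only the compared tissues gave 3 for the ripening difference. Calls over all genes moved with the setting too. For the ripening difference, 2483 of 22801 genes were higher and 2383 lower in the main analysis. With only the compared tissues these were 2200 and 2088 of 21345. For red over green exocarp, 6767 of 22801 genes were higher and 7341 lower in the main analysis. These were 4755 and 9306 with total counts, 4879 and 9341 on log2(FPKM + 1), and 4904 and 9436 on log2(FPKM + 0.1). No share of all genes is given for the stricter threshold or with a library left out. Without any mesocarp library, fewer of all genes were called for the ripening difference as well. Those counts of members therefore describe the members only. With a library left out, counts ran from 4 to 6 (green exocarp over green mesocarp), 5 to 7 (red exocarp over red mesocarp), 4 to 5 (red over green exocarp), 8 to 9 (red over green mesocarp, green mesocarp over leaf and red mesocarp over green exocarp), 4 to 8 (red exocarp over green mesocarp) and 1 to 7 (ripening difference), and were 9 throughout for the other 3 comparisons with leaf.

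Directions turned for LCYB1 in red over green exocarp (0.08) with total counts (-0.25) and both FPKM fits (-0.19 and -0.20), and over the left-out libraries it ran from -0.20 to 0.46. In green exocarp over green mesocarp the range was -0.59 to 0.0809 for LCYB1, -0.35 to 0.12 for ZEP and -0.46 to 0.0684 for VDE, each turning without green exocarp replicate 2. In red over green exocarp it was -0.50 to 0.0799 for CYCB, which turned without red exocarp replicate 2, -0.12 to 0.0623 for CYP97A29 and -0.29 to 0.0232 for CYP97C11, which turned without replicate 1. In red exocarp over green mesocarp, CrtR-b1 turned with total counts (-0.15) and both FPKM fits (-0.15), and CYP97A29 likewise (-0.23, -0.22 and -0.23). The ripening difference of LCYE, -3.14 with the fitted value of its 0 counts, was 1.75 and 1.61 in the FPKM fits and is not used. None of these was called in the main analysis except CYP97A29. The cause was not tested.

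Same-numbered replicates showed no shared deviation over genes (correlations from -0.05 to 0.06). This cannot exclude that tissues of a replicate came from the same plants. With the replicate block the ripening difference gave 4 members instead of 6, CYP97C11 (adjusted p = 0.053) and CrtR-b2 (adjusted p = 0.052) being lost. Over all 22801 genes the block gave 2217 higher and 2156 lower for this difference, against 2483 and 2383 in the main analysis. VDE was lost with the block in red exocarp over green mesocarp (adjusted p = 0.0527). Depth limits LCYE in red fruit (0 to 6 counts) and CYCB in exocarp (21 to 38 counts).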
